A study of Mus musculus with 4 samples.

Results

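The 8 genes described here, which carry the water, potassium, glutamate, acid-base and lactate handling of the retina's radial glia, were followed through a single-cell RNA-seq series of mouse retina. They were chosen by name among the 32285 genes counted in each library: Aqp4, Kcnj10, Slc1a3, Glul, Car2, Car14, Atp1b2 and Slc16a1. All 8 were found in every library. Müller glia span the retina from the photoreceptor layer to the vitreous, and they clear the potassium and glutamate that active neurons release. Aqp4 encodes the water channel aquaporin-4 and Kcnj10 the inward rectifier Kir4.1, which sit together on the glial endfeet. Slc1a3 encodes the glutamate transporter GLAST, and Glul the glutamine synthetase that turns captured glutamate into glutamine. Car2 and Car14 encode a cytosolic and a membrane-bound carbonic anhydrase, Atp1b2 a beta subunit of the sodium pump, and Slc16a1 the monocarboxylate transporter MCT1, which carries lactate.

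The retinas came from 2 wild-type (WT) and 2 NLGF mice at 30 days of age, 1 female and 1 male of each genotype, with 1 droplet library per retina. Where a genotype is given 2 values, the female's comes first. NLGF mice carry a knock-in of humanised, mutated amyloid beta sequence in their own App gene, so the allele is expressed wherever App is. The labels state neither zygosity nor strain background. The study's title concerns a stress response in Müller glia ahead of amyloid pathology, and the comparison here asks how the homeostatic genes stood in the same cells at that age.

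The 4 libraries held 35191 barcodes, with median totals of 945.5 to 1168.5 unique molecular identifiers (UMIs) per barcode, and 31329 were analysed after filtering. Any pair of libraries shared 17 to 34 cell barcodes. Cells formed 19 clusters, all but 1 of which were given 9 class names from marker genes that did not include the 8 genes, and the 8 genes were also kept out of the genes clustered on. The ganglion-marker class held cells with horizontal markers and a shallow cluster of 600 cells. The 10 leading genes of that cluster included Nefl and Sncg, but also Gm14508 and Gm19667, which were among those of the largest rod cluster. The class is named for its markers only. The Müller class held 1418 cells (255 and 380 in WT, 407 and 376 in NLGF), and all 12 of its fixed markers, among them Rlbp1 and Sox9, had UMIs in every library. It joined a deep cluster of 725 cells, with median totals of 7664 to 11219 UMIs per cell, and a shallow cluster of 693 cells, with medians of 765 to 931. Slc1a3, Aqp4 and Car14 were among the 10 leading genes of the deep cluster although none of them had been used to build it. The shallow cluster was led by genes that included S100a1 and Dapl1, with 1 of the 12 markers, Dbi, among its 10 leading genes.

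The 8 genes lie apart from one another in the genome (GRCm38, GENCODE M21), and all are protein-coding. Kcnj10 (chromosome 1, 172341210 to 172374085, plus strand) and Glul (chromosome 1, 153899944 to 153909723, plus strand) share a chromosome, as do Car2 (chromosome 3, 14886273 to 14900770, plus strand), Car14 (chromosome 3, 95897768 to 95904691, minus strand) and Slc16a1 (chromosome 3, 104638668 to 104658462, plus strand). Slc1a3 lies on chromosome 15 (8634124 to 8710764, minus strand) and Atp1b2 on chromosome 11 (69599736 to 69605942, minus strand). The end of Car14 overlaps Aph1a on the other strand, a gamma-secretase subunit gene that measured 41.1 to 51.2 UMIs per 1000000 of the class (CPM) in Müller glia and 18.6 to 24.8 in rods. The sources used here do not say whether strand was used in counting, so UMIs from this overlap cannot be told apart. Aqp4 and Glul also overlap counted genes on the other strand, Gm50048 and Teddm2. Slc16a1 holds Gm43581 and Gm43585 on its own strand. The highest of these in Müller glia or rods was Gm43581, at 15.8 to 20.4 CPM in rods.

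RefSeq promoters were at hand for 5 of the 8 genes (build GRCm38.p6). Those of 3 genes are shown because their distributions differ: Slc1a3 and Kcnj10 were found almost wholly in Müller glia, and Slc16a1 in many classes. Each is the 250 bases before the gene's RefSeq start, read 5′ to 3′ on the gene's strand, at chr15:8710808-8711057 (minus), chr1:172340960-172341209 (plus) and chr3:104638414-104638663 (plus). Capitals mark matches, on either strand, to the motifs searched.
Slc1a3: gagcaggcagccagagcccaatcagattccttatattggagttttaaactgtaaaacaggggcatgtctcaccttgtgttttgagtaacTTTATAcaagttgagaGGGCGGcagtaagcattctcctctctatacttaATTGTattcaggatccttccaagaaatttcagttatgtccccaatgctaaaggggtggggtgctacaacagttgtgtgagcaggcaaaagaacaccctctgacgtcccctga
Kcnj10: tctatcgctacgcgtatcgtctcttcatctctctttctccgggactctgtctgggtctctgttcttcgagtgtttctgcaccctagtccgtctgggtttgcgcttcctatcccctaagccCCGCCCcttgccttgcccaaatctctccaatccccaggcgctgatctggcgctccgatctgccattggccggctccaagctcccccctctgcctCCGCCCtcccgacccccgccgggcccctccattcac
Slc16a1: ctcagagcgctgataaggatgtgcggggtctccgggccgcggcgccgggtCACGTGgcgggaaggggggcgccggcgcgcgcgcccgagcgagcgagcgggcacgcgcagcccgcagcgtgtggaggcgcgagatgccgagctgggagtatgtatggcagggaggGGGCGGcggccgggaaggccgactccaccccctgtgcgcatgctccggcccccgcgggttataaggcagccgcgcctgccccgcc
The promoter of Slc1a3 held 2 CpG dinucleotides, and 18.8% of 32851 promoters of this length held fewer. That of Slc16a1 held 37, with 97.8% holding fewer, and that of Kcnj10 held 17, against a median of 6. The Müller-restricted genes were therefore not alike in CpG content, since Glul held 15 and Car14 held 10. Capitals in Slc1a3 are a TATA box (TATAAA, in 12.4% of all promoters), a GC box (GGGCGG, in 32.7%) and a SOX core (ACAAT, in 27.7%). Those in Kcnj10 are 2 GC boxes. Slc16a1 held a GC box and a hypoxia response core (ACGTG, in 16.6%) that was matched on both strands at overlapping positions. Glul, not shown, held a GC box, and Car14 a hypoxia response core. No match was found in the 5 promoters to the LHX core (TAATTA, in 4.84%), the ATF4 and CHOP composite element (TTGCATCA, in 0.792%), the palindromic NFI site (in 0.0365%) or the glucocorticoid response element (in 0.00913%). These are letter matches only, and the TATA box match in Slc1a3 lay on the other strand, 161 bases before the start. The bases just after the RefSeq start were found in a GENCODE transcript of Kcnj10 but not of Slc1a3 or Slc16a1.

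The genes fell into 2 patterns across the retina's cell classes. Aqp4, Kcnj10, Slc1a3, Glul and Car14 were concentrated in Müller glia, where on average 95.6%, 93.3%, 95.6%, 89.6% and 96.1% of each gene's UMIs lay, in cells that gave 1418 of the 31329 barcodes. Car2, Slc16a1 and Atp1b2 were shared with other cells, with 33.8%, 20.1% and 7.53% of their UMIs in Müller glia. Classes come from clusters of the same cells, so levels between classes are given without a test, and levels are not compared between genes.

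**Figure D1:**
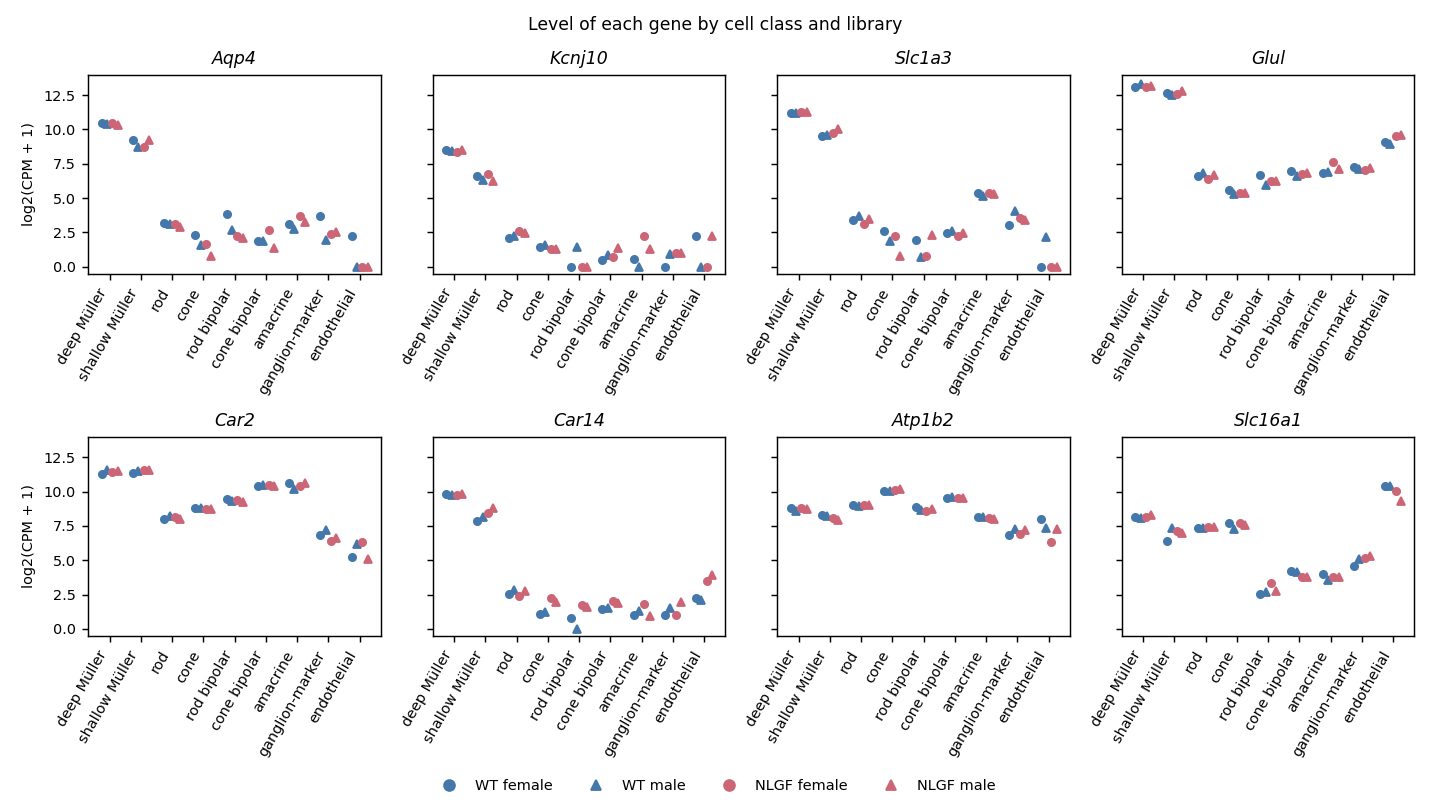
Level of each gene as log2(CPM + 1) in the deep and shallow Müller clusters and 7 other cell classes, 1 point per library (blue WT, red NLGF; circles female, triangles male; microglia and the unnamed cluster are not drawn). Aqp4, Kcnj10, Slc1a3 and Car14 drop to near the floor outside Müller glia, while Atp1b2 is highest in cones and Slc16a1 in endothelial cells.

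Aqp4, the water channel, lies on chromosome 18 (15389496 to 15410982, minus strand). It measured 1333 and 1259 CPM in WT Müller glia and 1343 and 1218 in NLGF. No other class exceeded 13.4 CPM in any library, and rods stood at 6.52 to 8.07, which was 0.583% of the Müller level. Kcnj10, its partner on the endfeet, measured 328 and 322 CPM in WT and 307 and 336 in NLGF. Rods reached 3.25 to 5.20 CPM and every other class at most 3.78. The rod level of Kcnj10, 1.29% of the Müller level, was the highest such share among the 5 Müller-restricted genes. Beside these rod values, the summed level of the 12 Müller markers was 418 to 473 CPM in rods against 34729 to 37742 in Müller glia.

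Slc1a3, the glutamate transporter, measured 2192 and 2199 CPM in WT Müller glia and 2279 and 2352 in NLGF. Amacrine cells came next, at 41.0 and 34.8 CPM in WT and 39.7 and 38.2 in NLGF, above every library of rods (7.81 to 11.9), cones, both bipolar classes and the ganglion-marker class. With each cell thinned to 500 UMIs, 0.870% to 3.39% of amacrine cells held an Slc1a3 UMI. With 115 to 178 amacrine cells per library, these shares rest on few cells. The shares were 0.471% to 0.696% in rods and 47.4% to 52.2% in Müller glia, and, unthinned, 15.6% to 22.5% in amacrine cells. Median totals before thinning were 10711 to 12423.5 UMIs per amacrine cell and 807 to 955 per rod.

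Glul, glutamine synthetase, measured 8654 and 9875 CPM in WT Müller glia, and 8405 and 9071 in NLGF. Its second class was endothelial, at 501 to 788 CPM, which did not overlap with amacrine cells (114 to 200), the ganglion-marker class (128 to 154), cone bipolar cells (94.9 to 124), rods (84.9 to 113), rod bipolar cells (61.4 to 102) or cones (37.5 to 48.1). Microglia, at 106 to 402 CPM from 77 UMIs in all, overlapped with several of these. Among the 6 classes from amacrine cells to cones, neighbours in this order overlapped, except the ganglion-marker class with cone bipolar cells and rod bipolar cells with cones. After thinning to 500 UMIs, 88.0% to 92.5% of Müller glia held a Glul UMI, against 4.98% to 6.50% of rods and 21.4% to 33.3% of endothelial cells.

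Carbonic anhydrases differed from each other in distribution. Car14, the membrane-bound form, measured 856 and 815 CPM in WT Müller glia and 795 and 857 in NLGF, against 4.25 to 6.23 in rods. Its values in microglia and endothelial cells rested on 3 and 7 UMIs. Car2, the cytosolic form, measured 2454 and 2975 CPM in WT Müller glia and 2837 and 2915 in NLGF. Amacrine cells (1197 to 1596 CPM) and cone bipolar cells (1338 to 1464) followed and overlapped with each other. Among the named classes, rod bipolar cells (619 to 691), cones (421 to 441) and rods (255 to 298) came next without overlap. The unnamed cluster stood at 481 to 595 CPM. At 500 UMIs a Car2 UMI was seen in 62.0% to 71.3% of Müller glia, 41.7% to 45.5% of cone bipolar cells and 10.7% to 12.3% of rods.

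Slc16a1, the lactate transporter, was highest in endothelial cells, at 1325 and 1338 CPM in WT and 1075 and 650 in NLGF. Müller glia stood at 258 and 264 CPM in WT and 271 and 287 in NLGF, above cones (158 to 214) and rods (162 to 168), whose ranges overlapped. Amacrine, cone bipolar and rod bipolar cells lay between 4.94 and 17.9 CPM. Rods, with 25064 cells, held 53.5% of all Slc16a1 UMIs. Photoreceptors and Müller glia thus both carried Slc16a1, while inner retinal neurons were low.

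Atp1b2, the sodium pump beta subunit, was highest in cones, at 1036 and 1044 CPM in WT and 1101 and 1145 in NLGF. Among the named classes, cone bipolar cells (739 to 797 CPM) and rods (503 to 517) followed. The unnamed cluster stood at 725 to 818 CPM. Müller glia, at 427 and 372 CPM in WT and 432 and 408 in NLGF, overlapped with rod bipolar cells (393 to 464), and amacrine cells were lower (257 to 288). The mean rod level was 125% of the Müller level. Of the 8 genes, Atp1b2 was the one with the smallest share of its UMIs in Müller glia.

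**Figure D2:**
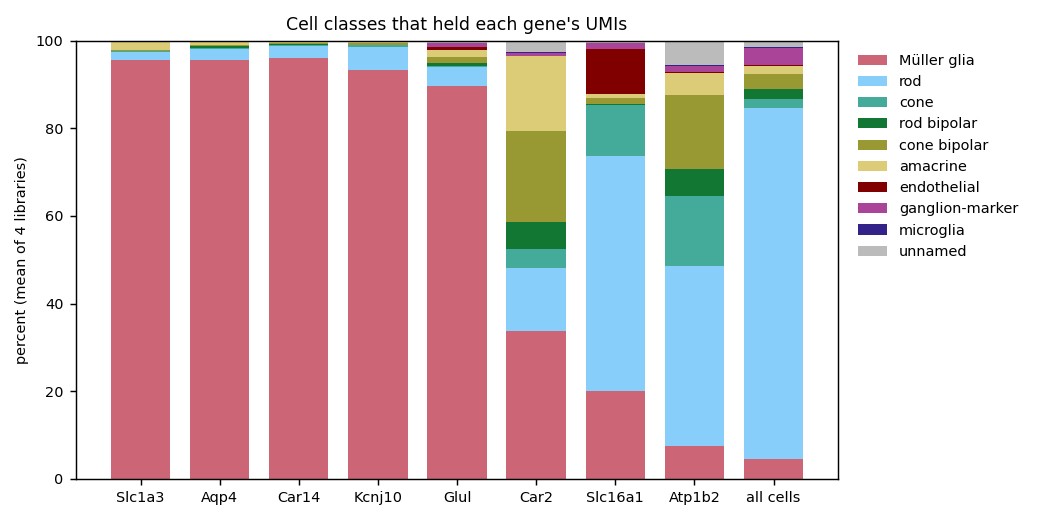
Share of each gene's UMIs, in percent, held by each cell class, as a mean over the 4 libraries, with each class's share of the analysed cells in the last bar. Müller glia hold 89.6% to 96.1% of 5 genes and 7.53% to 33.8% of the other 3.

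Deep Müller cells held the whole set together. All 8 genes had at least 1 UMI in 65.3% and 74.9% of deep WT Müller cells and in 74.8% and 76.8% of deep NLGF ones, against 0.498% to 1.61% of shallow Müller cells. At 500 UMIs per cell the mean number of the 8 genes seen was 3.46 to 3.63 in deep cells, 2.29 to 2.44 in shallow cells and 0.445 to 0.467 in rods. The clusters differed in this mean at 500 UMIs per cell, and the cause of that difference was not tested. From cell to cell among deep Müller glia, Glul and Car2 had the highest rank correlations of the 28 gene pairs in 3 of the 4 libraries (Spearman's rho 0.518 and 0.399 in WT, 0.438 and 0.178 in NLGF). The other 27 pairs lay between -0.140 and 0.324. These are descriptions across cells that share a library and vary in depth.

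Genes with the closest profiles were sought over the 36 sums of 9 classes by 4 libraries, among 7631 genes, as Pearson correlations of log2(CPM + 1). The points share libraries and classes, so the values are descriptive. Closest were Chrdl1 to Aqp4 (0.95), Popdc3 to Kcnj10 (0.96), Lhx2 to Slc1a3 (0.97), Dbi to Glul (0.94) and Spc25 to Car14 (0.95). For the shared genes they were Hs2st1 to Car2 (0.89), Svil to Slc16a1 (0.90) and Anp32e to Atp1b2 (0.86). Second in rank were Efhd1, Il33, Col23a1, Prdx1 and Slmap for the 5 Müller-restricted genes, and Smarcb1, Ctnna1 and Pygm for Car2, Slc16a1 and Atp1b2. Lhx2 encodes a homeodomain factor of retinal progenitors and Müller glia, and Dbi, a marker used to name the class, a carrier of acyl-CoA.

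Shallow Müller cells did not hold the 8 genes in the same proportions as deep ones. Kcnj10 had the lowest mean, at 25.8% of its deep CPM (range over libraries 20.4% to 32.0%), followed by Slc1a3 at 34.9%, Aqp4 at 36.9% and Car14 at 37.1%. Slc16a1 stood at 44.5% (29.8% to 58.1%), Atp1b2 at 65.9% and Glul at 70.2%. Car2 was level, at 104.9% (95.9% to 109.1%). Kcnj10 measured 354 and 350 CPM in deep WT cells and 98.0 and 80.1 in shallow ones, with 331 and 369 in deep NLGF cells and 106 and 75.2 in shallow ones. Car2 measured 2432 and 2988 CPM in deep WT cells and 2653 and 2864 in shallow ones, with 2811 and 2896 in deep NLGF cells and 3058 and 3067 in shallow ones. Car2 had the highest of these percentages in each library, and the ranges of Glul and Atp1b2 overlapped.

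Other measures moved with the same split. The summed rod markers were 10258 to 19865 CPM in shallow Müller cells, 1456 to 1516 in deep ones and 53693 to 56667 in rods, with all 9 rod markers detected in each. The median mitochondrial share was 9.48% to 11.3% per shallow cell and 4.94% to 7.15% per deep cell. Pigment epithelium markers summed to 2568 CPM in the shallow cells of 1 library, the WT male, and to 996 in those of the NLGF male, carried by 1 and 2 cells. Their part in the difference between deep and shallow cells was not tested.

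**Figure D3:**
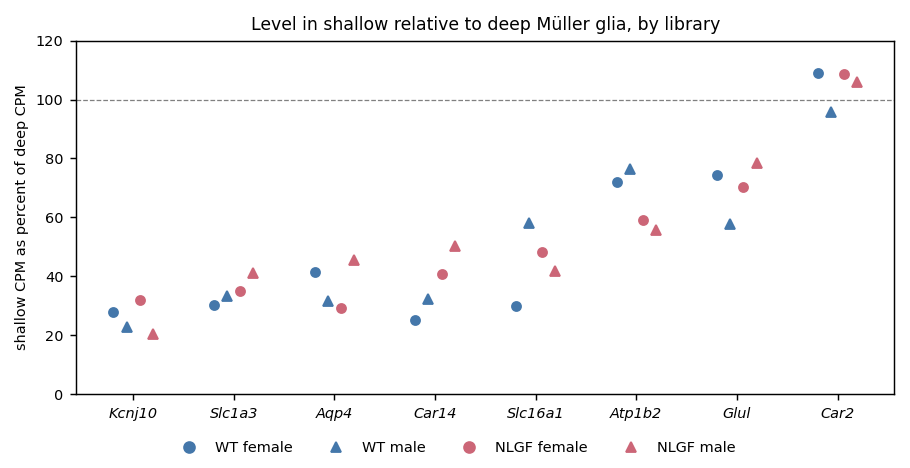
Level of each gene in shallow Müller cells as a percent of its level in deep Müller cells, 1 point per library, with a dashed line at equality. Kcnj10 lies between 20.4% and 32.0%, and Car2 between 95.9% and 109.1%.

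NLGF and WT Müller glia did not differ detectably in any of the 8 genes. With UMIs summed per library and tested with edgeR's quasi-likelihood test, 0 of 8 genes passed an adjusted p of 0.05, where 1.09% of the 11102 genes tested in this class did. None had an unadjusted p under 0.05, where 11.1% of all genes did, and DESeq2 called 0 of 8 (0.432% of all genes). Adjusted p from edgeR ran from 0.636 to 0.948, and log2 fold changes of NLGF over WT ran from -0.13 (Glul) to 0.06 (Slc16a1). The median of the 8 was -0.01, against 0.00 over all genes tested, with 4 values below 0 and 4 above. The widest 95% bounds were -0.30 and 0.25, so differences beyond 0.810-fold or 1.19-fold lay outside every gene's interval. These intervals rest on 2 libraries per genotype, each a separate mouse of either sex.

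Libraries of the genotypes overlapped in Müller glia for 6 of the 8 genes, while 41.3% of all genes tested did not overlap. The other 2 were Slc1a3, at 2196 ± 4.95 CPM in WT and 2316 ± 51.9 in NLGF (SD, n = 2 each), and Slc16a1, at 261 ± 3.81 and 279 ± 11.6, both higher in each NLGF library. Their log2 differences were 0.04 ± 0.09 and 0.06 ± 0.09 (SE, edgeR adjusted p = 0.940 and 0.898). Glul, at 9265 ± 863 CPM in WT and 8738 ± 470 in NLGF, was the gene whose call depended on 1 library. Without the WT female, which left a lone WT library assumed to vary like the NLGF pair, its log2 difference was -0.22 (edgeR adjusted p = 6.73e-06) in Müller glia and -0.26 (3.88e-07) in deep cells, fits that called 2.30% and 2.51% of all genes. Without the WT male it was -0.02 (adjusted p = 0.923) in Müller glia.

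Astrocyte markers differed between the libraries. Their sum in Müller glia was 684 CPM in the WT female, with 266 Gfap UMIs, and 42.0 to 73.3 CPM in the other 3 libraries. Without the cells that held at least 2 astrocyte markers, the log2 differences ran from -0.15 (Glul) to 0.04 (Slc1a3). None was called by edgeR, where 1.06% of the 10990 genes tested were.

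**Figure D4:**
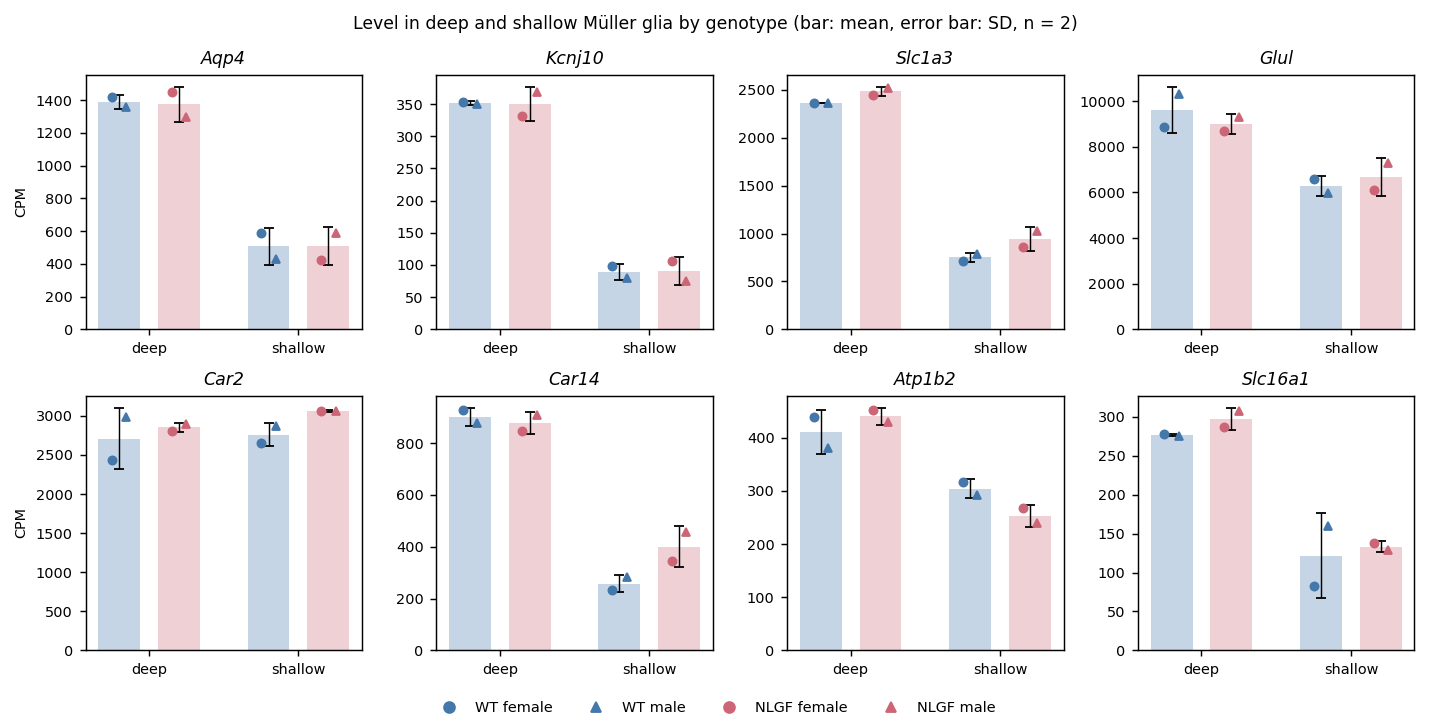
CPM of each gene in deep and shallow Müller cells by genotype, with 1 point per library, bars for the mean and error bars for the SD (n = 2 each). Deep levels of WT and NLGF lie close for every gene, and in shallow cells Car14 is 234 and 283 CPM in WT and 346 and 456 in NLGF.

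Deep Müller cells alone gave the same picture. Of 8 genes, 0 passed with edgeR, where 1.81% of 10858 genes did. At an unadjusted p under 0.05 it was 0 of 8 (11.7% of all genes), and with DESeq2 0 of 8 (0.396%). Aqp4 measured 1417 and 1357 CPM in WT and 1451 and 1298 in NLGF, a log2 difference of -0.06 ± 0.11 (SE, edgeR adjusted p = 0.896). Slc1a3 measured 2359 and 2366 in WT and 2447 and 2519 in NLGF, which did not overlap, as 41.2% of all genes did not, and the log2 difference with edgeR's scaling was 0.02 ± 0.10 (edgeR adjusted p = 0.966). Bounds of the 95% intervals ran from -0.33 to 0.28 over the 8 genes.

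Shallow Müller cells gave wider intervals, from -0.76 to 1.09, on 132696 to 225962 UMIs per library against 1176335 to 1830562 in deep cells. Here 0 of 8 genes passed with edgeR, where 0.0265% of 3776 genes did, and 0 with DESeq2 (0% of all genes). Car14 was the 1 gene with an unadjusted p under 0.05, as were 7.84% of all genes tested. It measured 234 and 283 CPM in WT and 346 and 456 in NLGF. Car14, Car2 and Slc1a3 were higher in both NLGF libraries than in either WT library, and Atp1b2 was lower in both. The share of all genes whose libraries did not overlap was not computed for shallow cells. It was 41.3% in all Müller glia and 41.2% in deep cells. Without that share, no genotype pattern was read from the separation of Car14, Car2, Slc1a3 and Atp1b2 in shallow cells. In the same shallow cells the 12 Müller markers summed to 22156 and 20475 CPM in WT and 24193 and 27859 in NLGF, and the 9 rod markers to 19865 and 12979 in WT and 12890 and 10258 in NLGF, and the part of these shifts in the Car14 values was not tested. The log2 difference of Car14 was 0.60 ± 0.24 (edgeR unadjusted p = 0.0179, adjusted p = 0.571). In deep cells Car14 measured 927 and 877 CPM in WT and 848 and 908 in NLGF. Tested directly, the genotype difference in deep minus that in shallow cells was -0.72 ± 0.26 for Car14 (edgeR adjusted p = 0.740). None of the 8 passed this test, as none of the 9213 genes in it did (0%), although 561 had an unadjusted p under 0.05, Car14 among them.

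Rods, where the 5 Müller-restricted genes stood at 0.436% to 1.29% of their Müller level, also showed no call. Among 8 genes, 0 passed with edgeR, where 0.00808% of 12382 genes did. At an unadjusted p under 0.05 it was 0 of 8 (8.29% of all genes), and with DESeq2 0 of 8 (0.00808%). Glul measured 94.1 and 113 CPM in WT rods and 84.9 and 99.7 in NLGF rods, a log2 difference of -0.24 ± 0.12 (edgeR adjusted p = 0.637). Without the WT female, Glul (-0.40, adjusted p = 0.00157) and Car2 (-0.28, adjusted p = 0.0264) were called lower in rods by edgeR, in a fit that called 7.74% of all genes, 661 of them lower and 337 higher. The genotype difference in Müller glia minus that in rods was called for 0 of 8 genes, where 0.383% of 13577 genes were called. At an edgeR unadjusted p under 0.05 it was 0 of 8, against 1109 of the 13577 genes.

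**Figure D5:**
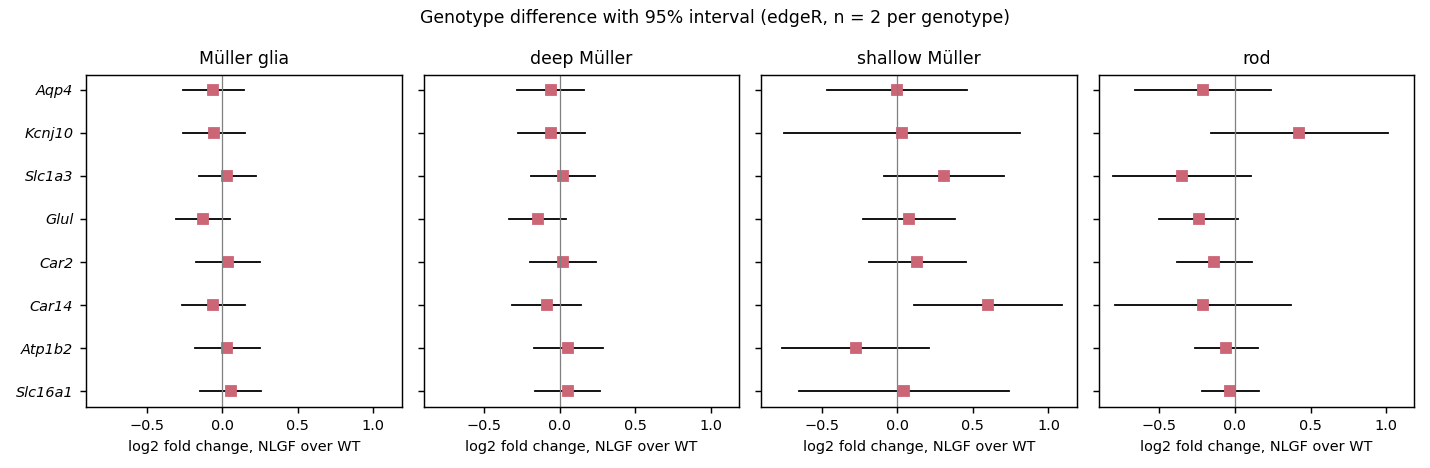
Log2 fold change of NLGF over WT for each gene with its 95% interval from edgeR, in all Müller glia, deep and shallow Müller cells and rods (n = 2 libraries per genotype). Every interval crosses 0 apart from Car14 in shallow Müller cells, whose adjusted p is 0.571.

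Outside Müller glia and rods the set was tested where counts allowed. In amacrine cells 0 of 6 tested genes passed with edgeR (0.00893% of all genes did) and Glul had an unadjusted p under 0.05, as did 4.72% of all genes. Glul measured 114 and 118 CPM in WT amacrine cells and 200 and 138 in NLGF, without overlap (32.9% of all genes), with a log2 difference of 0.50 ± 0.15 (edgeR adjusted p = 0.654). That value passed with edgeR when genes were not filtered (0.50, adjusted p = 0.0121), with sex as a block (0.50, adjusted p = 0.0441) and without the NLGF male (0.76, adjusted p = 0.000200), fits that called 0.391%, 0.420% and 0.491% of all genes. It was 0.23 without the NLGF female and 0.24 with doublets kept, with an edgeR adjusted p of 1.00 in both. In endothelial cells, 12 to 28 per library, 0 of 4 tested genes passed (0.0962% of all genes did), and 3 had an unadjusted p under 0.05 (5.06% of all genes did). Slc16a1 there measured 1325 and 1338 CPM in WT and 1075 and 650.3 in NLGF, a log2 difference of -0.66 ± 0.22 (edgeR adjusted p = 0.873). It was -1.06 without the NLGF female (edgeR adjusted p = 0.00244, where 0.215% of all genes passed) and -0.29 without the NLGF male (adjusted p = 0.792). Glul in endothelial cells measured 535 and 501 CPM in WT and 720 and 788 in NLGF, a log2 difference of 0.54 ± 0.19 (edgeR adjusted p = 0.944).

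The remaining classes held no call with all 4 libraries. Car2 in the ganglion-marker class measured 114 and 143 CPM in WT and 82.475 and 99.025 in NLGF. It differed by -0.59 ± 0.22 (edgeR adjusted p = 0.631), where 0 of 5 tested genes passed (0.0103% of all genes did) and 1 had an unadjusted p under 0.05 (7.40% of all genes did). Cones (0 of 4 genes, 0% of all genes), rod bipolar cells (0 of 3, 0.0107%), cone bipolar cells (0 of 5, 0.0622%) and microglia (0 of 1, 0%) had none of the 8 at an unadjusted p under 0.05, as 5.66%, 6.27%, 5.90% and 9.33% of their genes were. Atp1b2 in microglia was called with edgeR (2.11, adjusted p = 0.0264) once the NLGF female was left out, in a fit that called 6.41% of all genes. Over 11 fits and 60 tests of the 8 genes, 0 were called and 6 had an unadjusted p under 0.05, 3 of them in endothelial cells. The third of these was Atp1b2, at 258 and 163 CPM in WT and 81.1 and 152 in NLGF, a log2 difference of -0.71 ± 0.31 (edgeR adjusted p = 0.949).

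Among 57 partners and neighbours of the 8 genes in the same pathways, grouped in 5 lists, 39 could be tested in Müller glia. None rose and 1 fell with edgeR, where 1.09% of all genes were called, and that gene was Bsg, which encodes basigin, the chaperone that brings MCT1 to the cell surface. Bsg measured 2666 and 2388 CPM in WT and 1878 and 1882 in NLGF, without overlap, as was so for 41.3% of all genes tested. Its log2 difference was -0.47 ± 0.09 (edgeR adjusted p = 0.0168) in Müller glia and -0.49 ± 0.11 (adjusted p = 0.00485) in deep cells. Slc16a1, its client, measured 258 and 264 CPM in WT and 271 and 287 in NLGF of the same sums. In rods Bsg measured 489 and 538 CPM in WT and 475 in both NLGF libraries, a log2 difference of -0.19 ± 0.10 (edgeR adjusted p = 0.667), and the genotype difference in Müller glia minus that in rods was -0.28 ± 0.14 (adjusted p = 0.610). With either NLGF library left out the size in Müller glia stayed at -0.47 without the female and -0.46 without the male, at an edgeR adjusted p of 0.240 and 0.327. In deep cells Bsg stood at -0.50 without the NLGF female and -0.47 without the NLGF male, and was not called in either fit. There the fit with no filter on low counts gave -0.48 (edgeR adjusted p = 0.154), and counts thinned to the smallest library -0.46 (0.0915). Over the 5 lists in Müller glia, 39 genes were tested with sex as a block. Of these 1 rose and 4 fell, where 2.93% of all genes were called. With doublets kept 44 were tested, and 0 rose and 4 fell, where 1.66% of all genes were called.

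By list, the lactate and glucose genes had 6 of 9 tested and Bsg called, and the next smallest p was that of Ldha, the lactate dehydrogenase A gene, at -0.34 ± 0.10 (edgeR adjusted p = 0.150), followed by Emb, which encodes embigin, another monocarboxylate transporter partner, at -0.17 ± 0.20. Of the potassium and water genes 11 of 17 were tested and 0 called. Kcnk1, a tandem-pore potassium channel, was the highest of them at 208 to 240 CPM, with a log2 difference of 0.01 ± 0.10. Kcnma1, the BK potassium channel, lay at 6.84 to 15.3 CPM and -1.08 ± 0.34 (edgeR adjusted p = 0.185), and Dmd, the dystrophin gene, at -0.20 ± 0.11. Glutamate and GABA genes had 8 of 14 tested and 0 called, with Slc1a2, the glutamate transporter GLT-1, highest at 438 to 506 CPM and a difference of 0.04 ± 0.10. The GABA transporter gene Slc6a11 stood at 0.07 ± 0.10, and Slc38a1, a glutamine transporter gene, at 0.06 ± 0.10. Acid-base genes had 6 of 9 tested and 0 called. Slc4a7, a sodium bicarbonate cotransporter, was highest there at 64.2 to 89.9 CPM, and its difference was 0.11 ± 0.15. The carbonic anhydrase gene Car3 stood at 0.61 ± 0.51. The bicarbonate cotransporter gene Slc4a4 measured 37.4 CPM in the WT female, the library with the high astrocyte marker sum, 9.91 in the WT male and 9.77 and 12.4 in NLGF. Its log2 difference was -1.004 ± 0.442 (edgeR adjusted p = 0.414), 0.11 without the WT female (adjusted p = 0.962) and 0.67 without astrocyte-marker cells (adjusted p = 0.584). It was called with sex as a block (edgeR adjusted p = 0.0373) and with doublets kept (0.00622), where 2.93% and 1.66% of all genes were. Slc4a4 was also called without the WT male. The part of astrocyte-marker cells in its values was not tested.

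All 8 sodium pump genes were tested in Müller glia, with 0 called and 4 at an unadjusted p under 0.05, as were 11.1% of all genes. Fxyd1, a small regulator of the pump, was highest at 987 to 1126 CPM and differed by -0.14 ± 0.10, while Fxyd6 stood at 0.37 ± 0.10 (edgeR adjusted p = 0.115). Atp1b2, a beta subunit of the pump, measured 440 and 382 CPM in WT and 452 and 429 in NLGF in deep Müller cells, so that the genotypes overlapped. Over the 5 lists, edgeR called 2 of 37 genes in deep cells, both lower and Bsg among them (1.81% of all genes), 0 of 25 in shallow cells (0.0265%) and 0 of 42 in rods (0.00808%).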

How the data were processed

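For each library the authors deposited 1 matrix of unnormalised UMI counts, genes by barcodes. Per the file headers Cell Ranger 6.1.1 wrote them, while STAR, build mm10 and Cell Ranger 3.1.0 are listed per the submitters' processing notes. Intron and strand settings are not given in the sources used here. No barcode had fewer than 500 UMIs, so thinning to 500 left none out.

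Kept were the 33329 barcodes with 300 genes or more and a mitochondrial share of 20% or less. Scrublet's automatic threshold marked 2 cells, so the top 6% of scores per library (2000 cells) were removed. Clustering in scanpy 1.11.5 used 1995 of 2000 variable genes (5 of the 8 genes were among the 2000 and left out), 30 principal components, 20 neighbours and Leiden resolution 1. Clusters were named from fixed markers, so each class name means only likeness to that type (Müller-like). A name needed at least 3 markers of the class, each in at least 5% of the cluster's cells. The class with the highest mean marker z-score was taken, or another with more markers among the top 10 genes. With no marker in the top 10, a z-score under 0.8 or a median depth under 1/3 of the library's left the cluster unnamed.

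Counts were summed per library and class and tested with edgeR 4.0.16 (filterByExpr, TMM, no term but genotype, threshold 0.05 after Benjamini-Hochberg adjustment over every gene tested), which was checked on simulated data. Differences between classes were interaction terms with library as a block. CPM values use raw class totals. DESeq2 1.42.0 and other alternatives are in the closing section. The text names all 8 genes, and related genes that were called, highest in their list, or among the 3 smallest p of it. Some genes that this rule takes are not reported here. For each of the 8 it also names the 2 genes closest in profile, among genes with a mean of at least 50 CPM in some class. The 8 genes and the lists were chosen with earlier results of these data known. Each library is 1 retina of a separate mouse; litters and batches are not labelled. Counting intervals were not used, and genotype is compared over 4 libraries only.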

Additional observations from a re-analysis of the deposited data

How the results depend on the processing

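Of 392 recomputed log2 differences of the 8 genes in Müller glia, its 2 clusters and rods, 354 kept their direction and side of the threshold, 34 changed sign without being called, and 4 were newly called (Glul in Müller glia, deep cells and rods and Car2 in rods, each without the WT female). In Müller glia the sign of the log2 difference changed for Kcnj10 (0.027 with doublets kept, -0.12 to 0.0073 with 1 library left out), Aqp4 (0.010 with doublets kept, -0.13 to 0.015 with 1 left out), Car2 (-0.10 to 0.20 with 1 left out) and Atp1b2 (-0.0056 when thinned, -0.057 to 0.13 with 1 left out). In deep cells it changed for Kcnj10 (0.046 with doublets kept, -0.13 to 0.016 with 1 left out), Aqp4 (0.029 with doublets kept, -0.15 to 0.027 with 1 left out), Car2 (-0.013 without astrocyte-marker cells, -0.12 to 0.19 with 1 left out) and Atp1b2 (-0.035 to 0.15 with 1 left out). In shallow cells doublets kept gave -0.014 for Glul and -0.013 for Kcnj10, and a split at 3000 UMIs gave -0.022 for Glul, -0.022 for Slc16a1 and -0.63 for Kcnj10. There sex as a block gave 0.0069 for Aqp4 and -0.0046 for Kcnj10, no filter gave 0.081 for Aqp4, thinning -0.051 for Kcnj10, and clustering on the 8 genes -0.081 for Kcnj10. With 1 library left out, shallow values ran from -0.049 to 0.20 (Glul), -0.23 to 0.27 (Kcnj10), -0.28 to 0.69 (Slc16a1) and -0.25 to 0.23 (Aqp4). In rods they ran from -0.28 to 0.013 for Car2 and from -0.49 to 0.013 for Car14.

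Genes called moved more. In Müller glia 121 became 48 with DESeq2, 61 with no filter, 325 with sex as a block, 190 with doublets kept and 130 to 280 with 1 library left out. In deep cells 197 became 43 with DESeq2, 24 with no filter, 40 with thinning and 101 to 284 with 1 left out. In shallow cells 1 became 0 with DESeq2 and thinning, 12 with no filter, 18 with sex as a block, 2 with the split, 2 without pigment epithelium-marker cells (chosen after seeing the data) and 10 to 24 with 1 left out. In rods 1 became 105 with no filter, 164 with sex as a block and 21 to 998 with 1 left out. Calls among the 8 genes ranged over 0 to 1 with 1 library left out in Müller glia, deep, amacrine, endothelial and microglial cells (Atp1b2 in microglia, 2.11, adjusted p = 0.0264, without the NLGF female) and over 0 to 2 in rods. In amacrine cells 1 was called with no filter and 1 with sex as a block. The cause of these shifts was not tested. The labels give no replicate numbers; sex, with 1 female and 1 male per genotype, served as the pairing block. With 2 libraries per genotype, these data do not exclude differences that lie inside a gene's printed interval. Levels with at most 10% mitochondrial UMIs moved by more than the SD in 10 of 32 cases.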
